A study of Mus musculus with 5 samples.

Results

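The genes of the proteasome were examined in hematopoietic stem cells (HSCs) that had lost SYNCRIP, an RNA-binding protein. The members were the rows of the deposited expression table whose gene symbol begins with Psma, Psmb, Psmc, Psmd, Psme, Psmf or Psmg followed by a digit. The rule found 50 of the 24046 genes in the table, and 49 of them passed the filter on low values that left 13661 genes for testing. By their known roles these were 8 genes of the core alpha ring, 3 catalytic and 4 structural genes of the core beta ring, 3 of the immunoproteasome, 6 ATPases and 11 other subunits of the regulatory cap, 6 activators or inhibitors and 7 assembly factors. Psmc3ip matched the rule by its name alone, since its product acts in meiotic recombination, and it was put in no class, but it is among the 50 and the 49. Psmb11, the catalytic subunit of thymic epithelium, was listed at 0 in 4 libraries and at 2.60 in WT 2, and was not tested.

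HSCs were sorted from mouse bone marrow and profiled by bulk RNA sequencing with a low-input SMART-Seq v4 kit. Every library came from Syncrip flox/flox marrow that had been transplanted into CD45.1 congenic recipients and was collected 9 weeks after transplantation, which was 3 weeks after pIpC, a synthetic double-stranded RNA. The sort kept cells that were CD45.2+ and Lin-, Sca1+ and cKit+, and CD150+ and CD48-. The 3 WT libraries (WT 1, WT 2 and WT 3) were Mx1 Cre- and the 2 KO libraries (KO 2 and KO 3) were Mx1 Cre+, so the floxed alleles, the transplantation and pIpC were common to both groups. The Mx1 promoter answers to interferon, which pIpC induces, and Cre then removes exons 3 and 4 of Syncrip in any cell where the promoter is active. In the study's methods donors and recipients were 6 to 8 weeks old, recipients were lethally irradiated, and pIpC was given at 10 mg per kg on 2 days.

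The proteasome is the main protease of the cytosol and nucleus for proteins tagged with ubiquitin. Its core is a stack of rings in which outer alpha rings gate the entry and inner beta rings hold the catalytic threonines of Psmb5, Psmb6 and Psmb7. The regulatory cap binds ubiquitin chains, removes them and unfolds the substrate with a ring of ATPases. In blood cells and after interferon, Psmb8, Psmb9 and Psmb10 take the places of Psmb5, Psmb6 and Psmb7 in newly assembled cores, which are then called immunoproteasomes. Adult HSCs keep a low rate of protein synthesis and depend on protein quality control.

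Values are the deposited normalized signal, and fold changes are on the log2(signal + 1) scale, KO over WT. Beside a fold change, the value called trend-removed is the log2 fold change after a straight-line dependence on transcript GC content and log2 length was taken out of each library, and the p-values beside it belong to the fold change before that step. Syncrip, the targeted gene, had a signal of 1440 to 1944 in WT and of 294 and 343 in KO, or 18.5% of the WT mean (adjusted limma p 0.0352). Without 1 WT library the adjusted limma p of Syncrip was 0.164 to 0.210, and its trend-removed log2 fold change was -1.46 (adjusted limma p in that fit 0.146). Recovered depth was 21748781 to 22779536 reads in the WT libraries, 18308876 in KO 2 and 12539599 in KO 3. KO 2 stood apart by adipocyte transcripts, whose 10 listed genes took 0.109% of its reads against 0.00115% to 0.00396% in the other libraries. KO 3 had the lowest summed level of 10 neutrophil and myeloid genes (2.64% of reads, against 5.46% in KO 2 and 6.16% to 7.44% in WT). The 10 HSC and gate markers had reads in every library, and so did Itgam, a surface gene of cells outside the gate, at 7074 to 11353 in WT, 5158 in KO 2 and 2313 in KO 3. The part of these differences in the results for proteasome genes was not tested, and in bulk libraries fewer cells of a type and less RNA per cell cannot be told apart.

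Proteasome genes lay on both sides of WT in KO HSCs, and none passed the main test. Of the 49 tested members, 23 were above 0 and 26 below 0 in log2 fold change, with a median of -0.021 beside 0.020 over all tested genes and a range from -0.999 for Psme4 to 0.93 for Psmb10. Without Psmc3ip, 22 were above 0 and the median was -0.022. No member passed an adjusted p of 0.05 in limma, where 0.00732% of all tested genes passed, nor in edgeR's quasi-likelihood test, where 0.0146% passed. At an unadjusted limma p under 0.05 there were 7 members on the higher side (14.3%, against 13.3% of all tested genes) and 8 on the lower side (16.3%, against 14.5%). DESeq2 on the recovered reads called 5 members higher, namely Psmb5, Psmb8, Psmb10, Psmd3 and Psmg3, where it called 9.37% of the 12062 genes with an adjusted p higher. It called 3 members lower, namely Psmc6, Psmd1 and Psme4, against 9.58% of genes. With limma's limit raised to an adjusted p of 0.1, Psmb5 and Psmb10 passed on the higher side (background 4.76%) and Psmc6 and Psme4 on the lower side (background 6.47%). By these rules the shares of members called were near those of all genes.

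Without KO 2, limma called 13 members, of which 3 were higher (6.12%, against 9.9% of all tested genes) and 10 lower (20.4%, against 12.2%). Without KO 3 it called none, where 0.022% of all tested genes were called higher and 0.00732% lower, and 6 members had an unadjusted p under 0.05 (12.2%, against 14% of all tested genes). In both of these fits the lone KO library was assumed to vary like the WT libraries. The median of the members was 0.14 in KO 2 and -0.19 in KO 3. Both KO values exceeded all 3 WT values for 16 members (32.7%, against 23.9% of all tested genes) and lay under all 3 for 10 members (20.4%, against 23.2%).

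**Figure D1:**
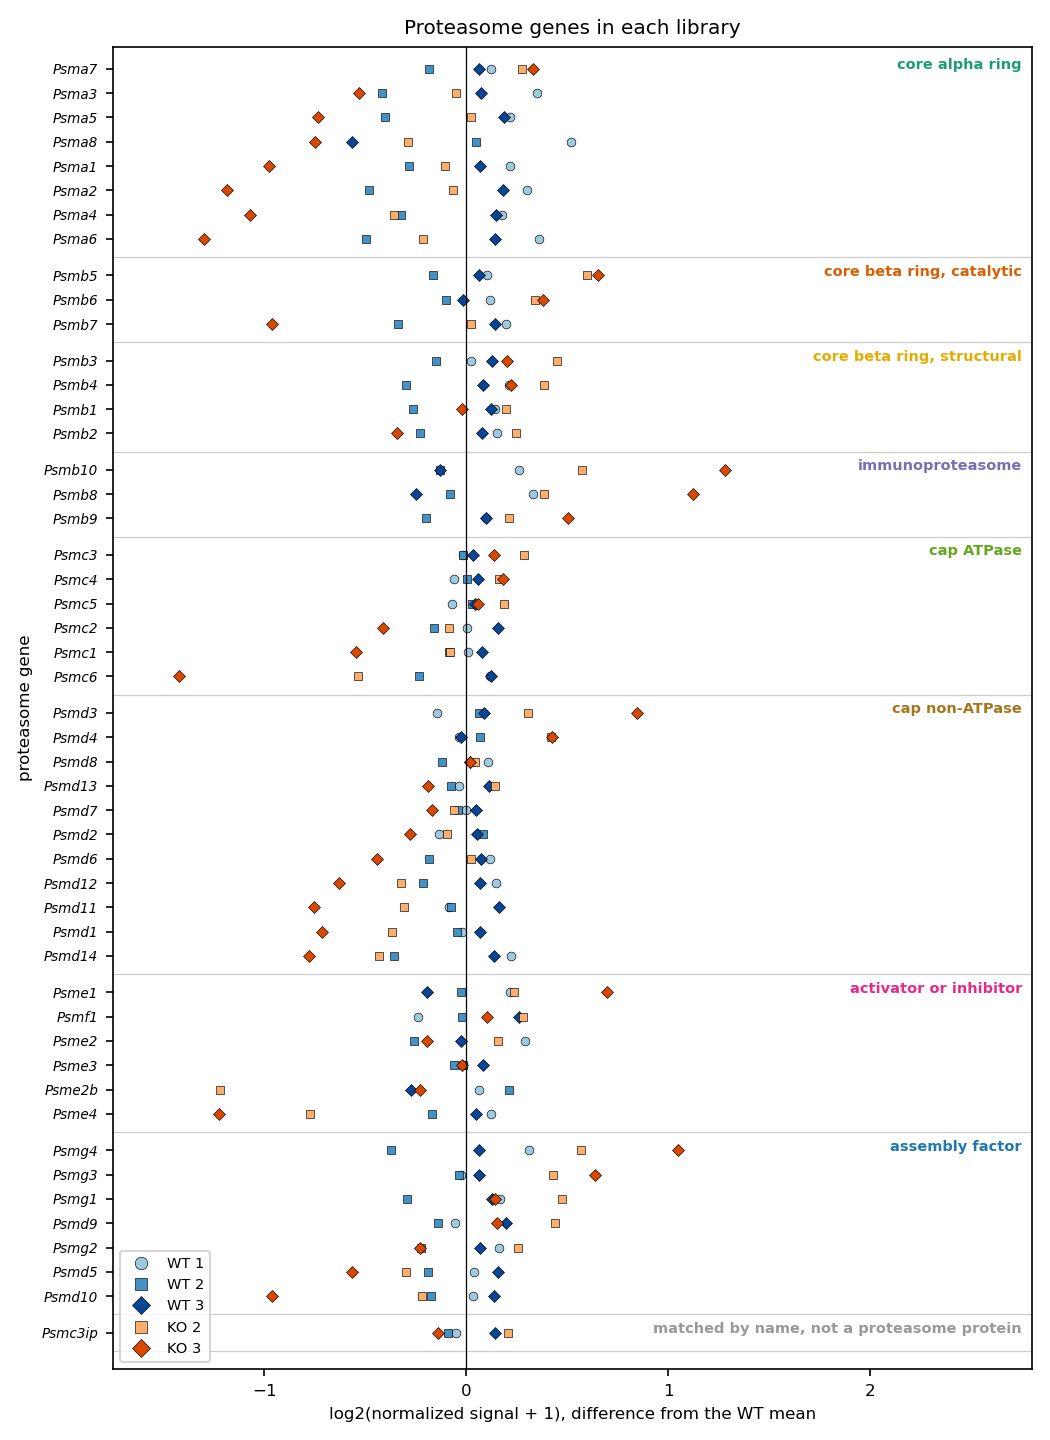
Each row is a tested proteasome gene, grouped by class, and the horizontal axis gives the difference of each library from the WT mean on the log2(normalized signal + 1) scale, with the 3 WT libraries in blue and the 2 KO libraries in orange. In the alpha ring KO 3 is the leftmost point for 7 of 8 genes, and in the immunoproteasome it is the rightmost for all 3.

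The alpha ring forms the gate of the core, and 7 of its 8 genes were below 0 (median log2 fold change -0.53). Only Psma4 had an unadjusted limma p under 0.05, on the lower side (background 14.5%). DESeq2 called none, against 9.37% of genes higher and 9.58% lower. Psma6 had the lowest log2 fold change of the ring, with a signal of 5084, 2804 and 4371 in WT against 3421 and 1613 in KO (log2 fold change -0.75 with SE 0.35, -0.44 trend-removed, adjusted limma p 0.197). KO 2 lay between WT 2 and WT 3, so the groups overlapped. Psma4 was the one gene of the ring whose KO values both lay under WT, at 2864, 2022 and 2800 in WT 1 to WT 3, 1977 in KO 2 and 1204 in KO 3 (log2 fold change -0.71 with SE 0.26, -0.28 trend-removed, adjusted limma p 0.127). Over all tested genes, 23.2% had both KO values under WT.

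Psma3 had a signal of 2548, 1498 and 2105 in WT against 1935 and 1387 in KO, and the difference was smaller than the spread among WT libraries (log2 fold change -0.29 with SE 0.26, 0.42 trend-removed, adjusted limma p 0.489). Psma7 went the other way, with both KO values above WT, at 6187, 5009 and 5940 in WT against 6888 and 7152 in KO (log2 fold change 0.30 with SE 0.17, 0.26 trend-removed, adjusted limma p 0.274). Psma8, the alpha subunit of testis, had a signal of 117 to 251 in WT, 143 in KO 2 and 103 in KO 3. The ring's median distance from the WT mean was -0.86 in KO 3 and -0.085 in KO 2. The median difference of WT 2 from the other WT libraries was -0.54 on the same scale.

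Among the constitutive catalytic subunits, Psmb5 and Psmb6 were higher in both KO libraries than in any WT library (23.9% of all tested genes were) and Psmb7 was not. Psmb5 carries the chymotrypsin-like activity that the drug bortezomib blocks, and its signal was 2139, 1779 and 2081 in WT against 3018 and 3130 in KO (log2 fold change 0.62 with SE 0.17, 0.19 trend-removed, adjusted limma p 0.0887, adjusted DESeq2 p 0.0129). The KO libraries were close to each other. Psmb6, the caspase-like subunit, had 4270, 3682 and 3899 in WT against 4996 and 5132 in KO (log2 fold change 0.36 with SE 0.16, -0.0059 trend-removed, adjusted limma p 0.189). Psmb7, the trypsin-like subunit, had 2202, 1521 and 2119 in WT 1 to WT 3, 1952 in KO 2 and 987 in KO 3 (log2 fold change -0.47 with SE 0.30, -0.32 trend-removed, adjusted limma p 0.337). KO 2 lay inside the WT range of Psmb7 and KO 3 far under it, and without KO 3 its log2 fold change was 0.022.

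The 4 structural beta genes had no unadjusted limma p under 0.05 (background 13.3% higher and 14.5% lower). Psmb3, with the highest log2 fold change of them, had a signal of 2272, 2010 and 2442 in WT against 3052 and 2570 in KO (log2 fold change 0.33 with SE 0.18, 0.11 trend-removed, adjusted limma p 0.271), with both KO values above WT. Psmb2, with the lowest log2 fold change, had a signal of 4322, 3320 and 4094 in WT against 4614 and 3060 in KO (log2 fold change -0.049 with SE 0.22, -0.059 trend-removed, adjusted limma p 0.900), where KO 2 was the highest and KO 3 the lowest of the 5 libraries.

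The immunoproteasome genes had the highest median log2 fold change of the classes (0.75). All 3 were higher in both KO libraries than in every WT library, as were 23.9% of all tested genes. Psmb10, which replaces Psmb7, had 1887, 1442 and 1441 in WT against 2344 and 3830 in KO (log2 fold change 0.93 with SE 0.25, 0.49 trend-removed, adjusted limma p 0.0859, adjusted DESeq2 p 0.00894). Psmb8, which replaces Psmb5, had 5152, 3866 and 3445 in WT against 5337 and 8910 in KO (log2 fold change 0.75 with SE 0.26, 0.36 trend-removed, adjusted limma p 0.118, adjusted DESeq2 p 0.0410). For Psmb8, KO 2 exceeded WT 1 by little and KO 3 by far. Psmb9, which replaces Psmb6, had 2324, 1891 and 2323 in WT against 2512 and 3075 in KO (log2 fold change 0.36 with SE 0.19, 0.011 trend-removed, adjusted limma p 0.251). The class median was 0.38 in KO 2 and 1.12 in KO 3.

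The summed markers of dendritic cells and macrophages, T cells and B cells overlapped between the groups or differed in 1 KO library only. The 8 measured genes of dendritic cells and macrophages took 0.0474% to 0.0718% of reads in WT, 0.0546% in KO 2 and 0.0655% in KO 3, and none of them was at 0 in any library. The 6 T cell genes summed to 0.000702% to 0.000872% in WT and to 0.00187% in KO 3. In KO 2, where 3 of them were at 0, they summed to 0.000819%. KO 2 thus lay inside the WT range and KO 3 above it. Most of the sum in KO 3 was Lck, with a signal of 325 there against 70.3 to 129 in WT. Cd3e and Cd3g were also highest in KO 3, but only at 4.56 and 6.07. Cd3d lay there under all WT values, at 9.11, and Cd4 and Cd8a lay inside the WT range. The 6 B cell genes summed to 0.00247% to 0.00312% in WT, 0.00245% in KO 2 and 0.00272% in KO 3. The 10 interferon response genes took 0.00902% to 0.0154% in WT, 0.0129% in KO 2 and 0.0185% in KO 3. Of these 10 genes, Bst2, Irf7, Isg15 and Oas1a were highest in KO 3. Mx1 and Ifit3 lay there under all WT values, and the others of these genes lay inside the WT range. Irf1, an interferon-induced transcription factor known to activate these genes, had 1683, 1376 and 1140 in WT against 1083 and 1422 in KO (log2 fold change -0.16 with SE 0.23, -0.34 trend-removed, adjusted limma p 0.684). The part of T cell and interferon transcripts in the higher values of KO 3 was not tested.

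To compare immunoproteasome subunits with their constitutive counterparts, the ratio of each pair was taken within each library. The ratio of Psmb10 to Psmb7 was 0.857, 0.948 and 0.680 in WT 1 to WT 3, 1.20 in KO 2 and 3.88 in KO 3. Both KO ratios lay above all WT ratios, with a difference of 1.39 on the log2 scale (two-sided exact permutation p = 0.2, adjusted over the 3 ratios p = 0.6), and the difference was 0.55 without KO 3 and 2.24 without KO 2. With 3 against 2 libraries the smallest p this exact test allows is 0.2, so it cannot reach 0.05. The ratio of Psmb8 to Psmb5 was 2.41, 2.17 and 1.66 in WT 1 to WT 3, 1.77 in KO 2 and 2.85 in KO 3, and the groups overlapped (difference 0.13, WT SD 0.28, two-sided exact permutation p = 0.8, adjusted p = 1). The ratio of Psmb9 to Psmb6 was 0.544, 0.514 and 0.596 in WT 1 to WT 3, 0.503 in KO 2 and 0.599 in KO 3, and these groups overlapped too (difference -0.0033, WT SD 0.11, two-sided exact permutation p = 1).

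**Figure D2:**
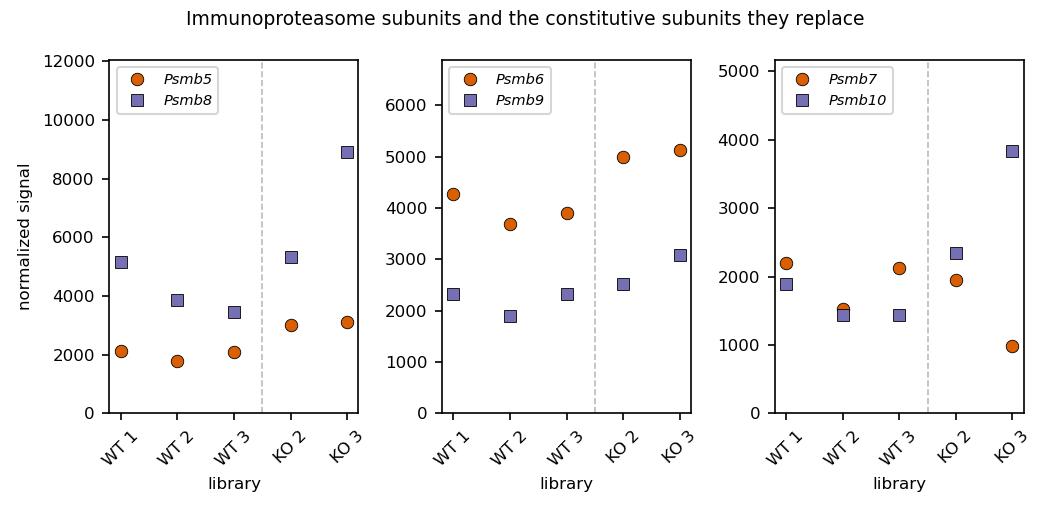
Normalized signal (vertical axes, starting at 0) in each library (horizontal axes) of the 3 immunoproteasome subunits (purple squares) and of the constitutive subunits they replace (orange circles), with a dashed line between WT and KO. Psmb10 lies under Psmb7 in the 3 WT libraries and above it in KO 2 and KO 3, and per kb of transcript their ratio is 0.601 to 0.838 in WT, 1.06 in KO 2 and 3.43 in KO 3, while that of Psmb8 to Psmb5 is 0.914 to 1.33 in WT, 0.977 in KO 2 and 1.57 in KO 3.

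Of the 6 ATPases of the cap, which form a ring with 1 copy of each, Psmc6 had the largest difference. Its signal was 1989, 1560 and 1997 in WT against 1265 and 683 in KO (log2 fold change -0.98 with SE 0.28, 0.030 trend-removed, adjusted limma p 0.0891, adjusted DESeq2 p 0.0221). Both KO libraries lay under WT, KO 3 much more than KO 2. The other ATPases ranged from -0.31 for Psmc1 to 0.21 for Psmc3. Psmc3, Psmc4 and Psmc5 were slightly higher in both KO libraries than in all WT libraries, as were 23.9% of all tested genes. Psmc3 had 5643, 5640 and 5840 in WT against 6958 and 6275 in KO (log2 fold change 0.21 with SE 0.16, -0.14 trend-removed, adjusted limma p 0.405).

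The 11 other cap subunits lay on both sides, 3 above 0 and 8 below 0, with 2 and 4 of them at an unadjusted limma p under 0.05 (background 13.3% higher and 14.5% lower). Psmd3, a subunit of the lid, had 5125, 5934 and 6022 in WT against 7019 and 10207 in KO (log2 fold change 0.58 with SE 0.20, -0.018 trend-removed, adjusted limma p 0.121, adjusted DESeq2 p 0.0467). Psmd4, a receptor for ubiquitin chains, had 3939, 4238 and 3967 in WT against 5406 and 5432 in KO (log2 fold change 0.42 with SE 0.16, 0.13 trend-removed, adjusted limma p 0.133, adjusted DESeq2 p 0.0510). Both genes were higher in each KO library than in any WT library, and for Psmd4 the KO libraries nearly coincided.

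Psmd1, a large scaffold of the base, had 5008, 4937 and 5340 in WT against 3942 and 3098 in KO (log2 fold change -0.54 with SE 0.18, -0.29 trend-removed, adjusted limma p 0.105, adjusted DESeq2 p 0.0370). Psmd14, the deubiquitinase that releases ubiquitin chains as the substrate enters, had 3649, 2440 and 3437 in WT against 2317 and 1822 in KO (log2 fold change -0.61 with SE 0.23, -0.052 trend-removed, adjusted limma p 0.132). The KO values of Psmd1, Psmd7, Psmd11, Psmd12 and Psmd14 all lay under WT, as did those of 23.2% of all tested genes. For Psmd7 the distance was small (log2 fold change -0.12, unadjusted limma p 0.48). Psmd13 and Psmd8, at -0.023 and 0.031, were nearest to 0 in this class.

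Among the activators and the inhibitor, Psme4 had the largest difference of any tested member. It encodes a single-chain activator that opens the core without ubiquitin and is known from chromatin and DNA repair. Its signal was 937, 767 and 892 in WT 1 to WT 3, 504 in KO 2 and 369 in KO 3 (log2 fold change -0.999 with SE 0.24, -0.54 trend-removed, adjusted limma p 0.0816, adjusted DESeq2 p 0.00409), and the KO mean was 50.4% of the WT mean. Both KO values lay well under all WT values.

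Psme1 and Psme2 encode the interferon-inducible activator, a ring built of both. Psme1 had 4620, 3905 and 3476 in WT against 4676 and 6435 in KO (log2 fold change 0.47 with SE 0.21, 0.16 trend-removed, adjusted limma p 0.184), with KO 2 barely above WT 1. Psme2 had 2527, 1730 and 2030 in WT against 2308 and 1807 in KO (log2 fold change -0.020 with SE 0.22, -0.17 trend-removed, adjusted limma p 0.960), and both KO values lay inside the WT range. The difference between the fold changes of the partners was not tested. Psme3, the nuclear activator, had 7279, 7065 and 7805 in WT against 7280 and 7261 in KO (log2 fold change -0.021 with SE 0.16, 0.021 trend-removed, adjusted limma p 0.941), again inside the WT range. Psmf1, the inhibitor, had 1424, 1657 and 2015 in WT against 2044 and 1803 in KO (log2 fold change 0.19 with SE 0.20, 0.30 trend-removed, adjusted limma p 0.563), and the groups overlapped. Psme2b, a near-copy of Psme2 whose reads may not be separable from it, had 84.0 to 118 in WT, 43.2 in KO 2 and 86.6 in KO 3.

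Of the 7 assembly factors, 5 were above 0 (median 0.29). Psmg3, a chaperone that pairs with Psmg4 in building the alpha ring, had 899, 890 and 955 in WT against 1229 and 1425 in KO (log2 fold change 0.53 with SE 0.19, 0.12 trend-removed, adjusted limma p 0.123, adjusted DESeq2 p 0.0473). Psmg4 had 441, 275 and 372 in WT against 528 and 738 in KO (log2 fold change 0.81 with SE 0.29, 0.50 trend-removed, adjusted limma p 0.126). For both partners each KO library exceeded every WT library, while for Psmg1 and Psmg2, which form the other chaperone pair, the groups overlapped at log2 fold changes of 0.31 and 0.013. Psmd10, a chaperone of the cap base also called gankyrin, had 844, 731 and 908 in WT 1 to WT 3, 708 in KO 2 and 422 in KO 3 (log2 fold change -0.59 with SE 0.27, 0.034 trend-removed, adjusted limma p 0.192), with KO 2 just under WT 2. Psmc3ip, the gene outside the proteasome, had a log2 fold change of 0.034.

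The higher and the lower members differed in the base composition of their transcripts. Tested genes were put into 3 classes of equal size by the GC content of the longest transcript. All 13 members in the lowest class (under 47.2% GC) were below 0 in log2 fold change (median -0.59), and all 12 in the highest class (over 53.51%) were above 0, with a median of 0.50. The 24 in between had a median of -0.020, with 11 above 0. All tested genes showed the same order, with class medians of -0.51, 0.0093 and 0.48, and 81.7% of the lowest class were below 0 while 84.1% of the highest were above 0. Across the 49 members, the log2 fold change correlated with transcript GC content at r = 0.86 (rho = 0.89) and with the GC content of the coding sequence alone at r = 0.86. For the last codon position r was 0.80, for the 3′ untranslated region 0.38, for the 5′ untranslated region -0.068 and for log2 transcript length -0.38. These correlations run across genes measured in the same 5 libraries and are a description. Over all 13515 tested genes with a transcript, r was 0.55.

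**Figure D3:**
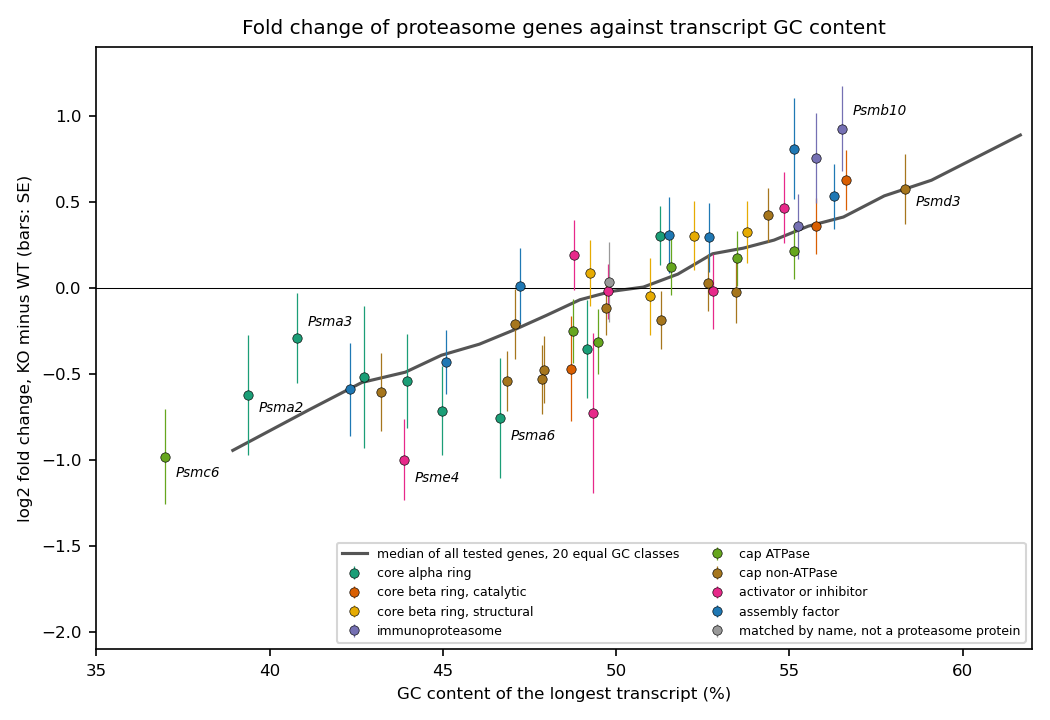
Each point is a tested proteasome gene, coloured by class, with the GC content of its longest transcript in percent on the horizontal axis and the log2 fold change of KO over WT on the vertical axis, with bars of 1 SE. The line joins the medians of all tested genes in 20 GC classes of equal size, and members follow it from Psmc6 at 37.0% GC to Psmd3 at 58.3% GC, with Psme4 and Psma6 under it and Psma3 and Psmb10 above it.

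The middle 30 codons of 8 transcripts are shown for genes the comparison turned on. They are Psmc6 and Psme4, the members with the lowest log2 fold changes, the cap subunits that DESeq2 called (Psmd1 lower and Psmd3 higher), and the pairs of constitutive and immunoproteasome subunits Psmb7 and Psmb10, and Psmb5 and Psmb8. The stretches were read 5′ to 3′ from GENCODE M21 transcripts (GRCm38), with G and C in capitals.
Psmc6: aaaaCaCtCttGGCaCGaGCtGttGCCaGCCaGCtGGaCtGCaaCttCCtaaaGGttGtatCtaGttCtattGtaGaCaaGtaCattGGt
Psme4: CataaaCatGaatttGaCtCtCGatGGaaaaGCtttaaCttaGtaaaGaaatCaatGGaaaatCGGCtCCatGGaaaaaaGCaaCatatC
Psmd1: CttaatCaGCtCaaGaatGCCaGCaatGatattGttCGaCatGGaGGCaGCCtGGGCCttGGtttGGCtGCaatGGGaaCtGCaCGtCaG
Psmd3: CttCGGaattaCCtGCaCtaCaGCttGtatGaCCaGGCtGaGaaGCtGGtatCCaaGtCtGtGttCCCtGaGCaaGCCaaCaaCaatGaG
Psmb7: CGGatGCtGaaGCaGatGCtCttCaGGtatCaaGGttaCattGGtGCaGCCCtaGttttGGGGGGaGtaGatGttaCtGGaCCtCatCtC
Psmb10: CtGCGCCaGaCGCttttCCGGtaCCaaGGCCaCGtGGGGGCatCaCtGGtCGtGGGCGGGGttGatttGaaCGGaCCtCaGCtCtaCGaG
Psmb5: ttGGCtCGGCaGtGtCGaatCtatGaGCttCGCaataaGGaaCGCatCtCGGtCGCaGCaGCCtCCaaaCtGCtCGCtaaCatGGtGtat
Psmb8: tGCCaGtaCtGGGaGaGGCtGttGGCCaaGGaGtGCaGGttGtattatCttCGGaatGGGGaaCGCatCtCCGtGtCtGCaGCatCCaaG

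G and C made up 44.4% of the stretch of Psmc6 and 33.3% of that of Psme4, against 50% in Psmb7 and 62.2% in Psmb10. Short stretches did not always follow the order of the fold changes, since that of Psmd3 held 48.9% and that of Psmd1 51.1%. Psmb5 and Psmb8 differed little, at 52.2% and 54.4%. Over whole transcripts the GC content was 37.0% for Psmc6, 43.9% for Psme4, 46.9% for Psmd1, 58.3% for Psmd3, 48.7% for Psmb7, 56.5% for Psmb10, 56.6% for Psmb5 and 55.8% for Psmb8. The pair whose ratio did not overlap between KO and WT was the one with the widest gap in GC content among the 3 pairs, Psmb10 being 7.81 percentage points above Psmb7.

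The slope on GC content differed between libraries. Across the members, the log2 difference from the WT mean changed by 1.17 per 10 points of GC in KO 3 and by 0.51 in KO 2. Each WT library set against the other WT libraries had a slope of -0.13, 0.19 and -0.063. Over all tested genes the slopes were 0.97 in KO 3, 0.52 in KO 2 and -0.16 to 0.26 in WT libraries. Both KO slopes exceeded every WT slope, and both KO libraries had fewer reads than WT, so genotype, depth and a GC bias of library preparation cannot be told apart.

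With the dependence on GC content and length taken out of each library, the differences among the members shrank. The SD of the 49 log2 fold changes went from 0.48 to 0.25, beside 0.85 to 0.70 over all tested genes, and 12 members changed sign. Psmc6 went from -0.98 to 0.030, Psmd3 from 0.58 to -0.018 and Psmb6 from 0.36 to -0.0059. The median of the alpha ring went from -0.53 to 0.017, and within the ring Psma6 was lowest at -0.44 and Psma3 highest at 0.42. In that fit an unadjusted limma p under 0.05 was found for Psma3 and Psmb10 on the higher side (7.18% of all its genes) and for Psme4 on the lower side (8.82%). Psma3 had no such p before the removal (0.299, at -0.29), and its sign turned. Psme4 was then at -0.54 (adjusted limma p 0.258, the lowest of any member) and Psmb10 at 0.49 (adjusted limma p 0.306). The immunoproteasome had the highest class median here too, 0.36, with 0.085 in KO 2 and 0.64 in KO 3. The log2 difference of the Psmb10 to Psmb7 ratio was 0.80 (two-sided exact permutation p = 0.4).

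**Figure D4:**
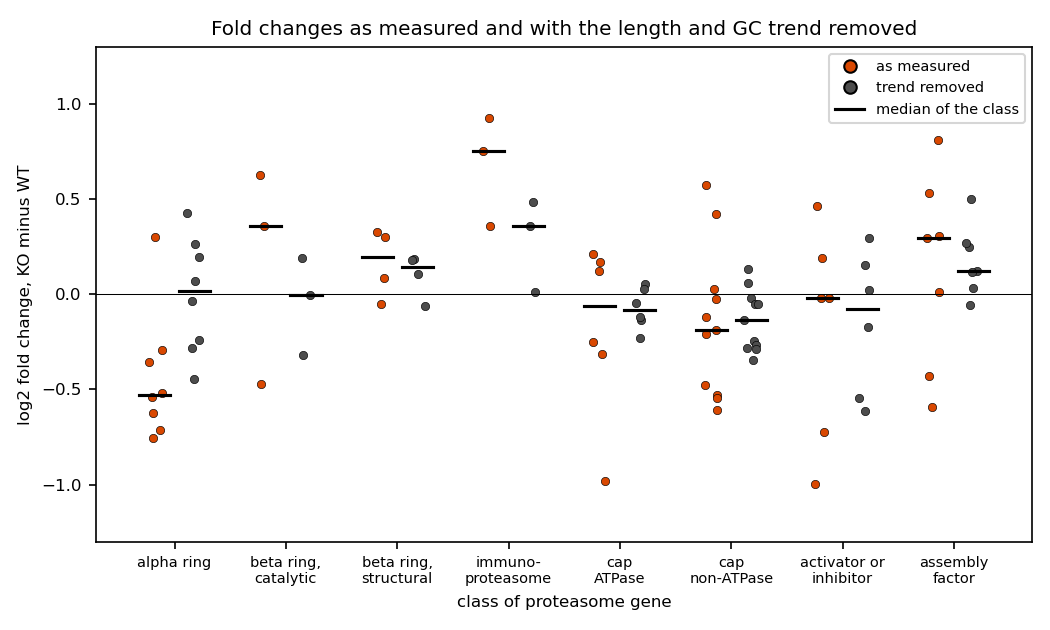
Log2 fold changes of the tested members (vertical axis) by class (horizontal axis), as measured (orange) and after removal of the length and GC trend (dark grey), with black lines at the class medians. The alpha ring moves from a median of -0.53 to 0.017 and the immunoproteasome from 0.75 to 0.36.

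Levels were then compared between genes as signal per kb of the longest transcript. The 15 constitutive core genes include Psma8, which replaces Psma7 in testis, and the other 14 are present in equal number in a core that holds no immunoproteasome subunit. In the WT mean these 14 spanned 720 (Psma3) to 4950 (Psmb6) per kb, a 6.87-fold span. In the KO mean the same genes stood at either end, at 583 and 6346, a 10.9-fold span. Per kb of coding sequence the WT span was narrower, from 2344 for Psmb7 to 8539 for Psma7. Among the ATPases Psmc6 was lowest per kb of transcript, at 828 in WT and 436 in KO, and Psmc3 highest, at 3138 and 3638. By WT level per kb the median member stood at percentile 94.6 of the tested genes, and Psma8 was lowest at percentile 39.1.

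**Figure D5:**
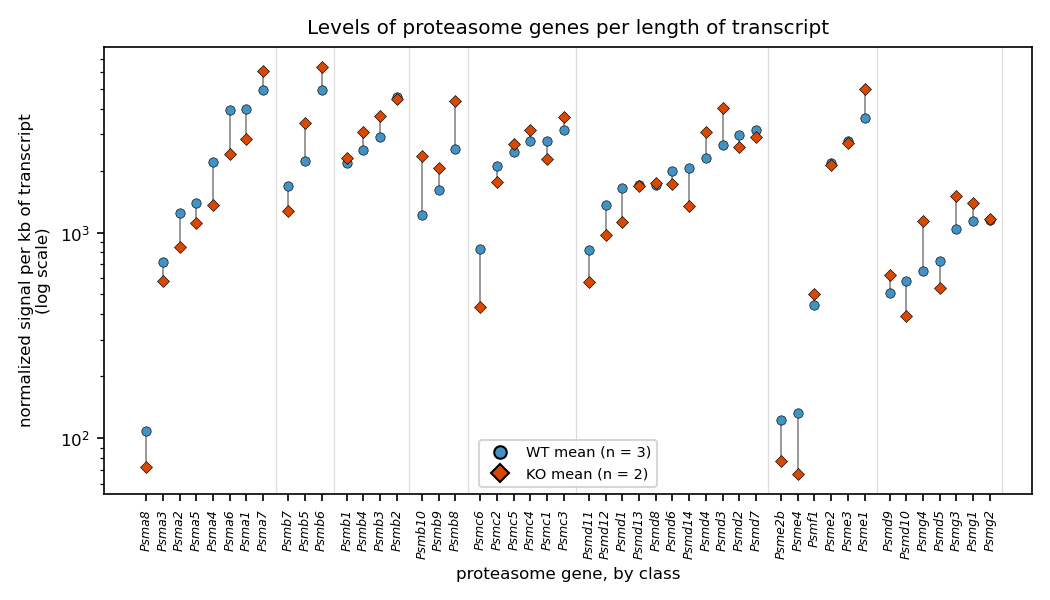
Normalized signal per kb of the longest transcript on a log axis (vertical), for the proteasome genes by class (horizontal), with the WT mean as blue circles and the KO mean as orange diamonds. Psma8, Psme2b and Psme4 lie at the bottom, and the distance between the means is widest for Psme4, Psmb10 and Psmc6.

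The share of reads in the 50 members did not separate the groups. They took 0.860% (95% exact binomial interval 0.857 to 0.864) of reads in WT 1, 0.718% (0.714 to 0.721) in WT 2 and 0.796% (0.792 to 0.799) in WT 3. KO 2 had 0.839% (0.835 to 0.843) and KO 3 0.768% (0.763 to 0.772), both between WT 2 and WT 1. The group means were 0.791% ± 0.0716 (SD, n = 3) and 0.803% ± 0.0503 (SD, n = 2), a difference of 0.0119 percentage points. The two-sided exact permutation p was 1. The intervals cover counting error only. The immunoproteasome genes took 0.0369% to 0.0513% of reads in WT, 0.0542% in KO 2 and 0.0830% in KO 3 (two-sided exact permutation p = 0.2, the smallest possible). The 3 constitutive catalytic genes of the beta ring did not overlap either. They took 0.0370% to 0.0472% in WT, 0.0530% in KO 2 and 0.0486% in KO 3 (two-sided exact permutation p = 0.2). The alpha ring took 0.102% to 0.158% in WT, 0.127% in KO 2 and 0.0864% in KO 3, where the groups overlapped (two-sided exact permutation p = 0.4).

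Of 43 other genes that serve the proteasome, supply ubiquitin or present its peptides, 42 were tested. In limma none passed an adjusted p of 0.05, with 5 higher and 9 lower at an unadjusted p under 0.05, against 13.3% of all tested genes on the higher side and 14.5% on the lower. None passed in edgeR, and DESeq2 called 3 higher and 6 lower, against 9.37% and 9.58% of all genes with an adjusted p. The list's median log2 fold change was 0.036. Adrm1, a ubiquitin receptor of the cap, was higher in both KO libraries than in WT, at 2038, 2080 and 2070 in WT against 2877 and 3724 in KO (log2 fold change 0.67 with SE 0.18, -0.066 trend-removed, adjusted limma p 0.0866, adjusted DESeq2 p 0.0104). Usp14, a deubiquitinase bound to the cap, was lower in both, at 3350, 2158 and 3191 in WT against 1979 and 1113 in KO (log2 fold change -0.94 with SE 0.29, -0.12 trend-removed, adjusted limma p 0.0995, adjusted DESeq2 p 0.0289). Their transcripts had 60.3% and 39.2% GC.

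Pomp, the chaperone that completes core assembly, had 2912, 2144 and 2715 in WT against 2542 and 1874 in KO (log2 fold change -0.23 with SE 0.21, -0.16 trend-removed, adjusted limma p 0.495). Nfe2l1, which encodes the transcription factor NRF1 that raises proteasome genes when proteasome activity is short, had 2168, 2369 and 1707 in WT against 2355 and 2849 in KO (log2 fold change 0.33 with SE 0.20, 7.3e-05 trend-removed, adjusted limma p 0.318). For both genes the groups overlapped. Tap1, a subunit of the transporter that carries proteasome peptides into the endoplasmic reticulum, had 3764, 4171 and 3731 in WT against 4313 and 7121 in KO (log2 fold change 0.51 with SE 0.23, -0.012 trend-removed, adjusted limma p 0.182), higher in both KO libraries than in WT.

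NRF1 binds antioxidant response elements, so the core of that element, TGACNNNGC, was searched on both strands of RefSeq promoter windows (GRCm38.p6) from 250 bases before to 50 bases after the start. Windows existed for 42 of the 50 members. Of their 45 windows, 6 held the core (13.3%), beside 12.4% of all 32851 windows. The members with a match lay on both sides, with log2 fold changes of 0.62 for Psmb5, 0.36 for Psmb6, 0.29 for Psmd9, -0.48 for Psmd12, -0.98 for Psmc6 and -0.999 for Psme4. The matches of the catalytic subunits Psmb5 and Psmb6 and of Psmc6 and Psme4 are shown with the core in capitals, read along the strand of the gene.
Psmb5 (chr14:54618034-54618042, minus strand): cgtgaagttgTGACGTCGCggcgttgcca
Psmb6 (chr11:70525348-70525356, plus strand): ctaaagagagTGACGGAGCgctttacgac
Psmc6 (chr14:45329597-45329605, plus strand): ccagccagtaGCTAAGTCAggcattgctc
Psme4 (chr11:30771768-30771776, plus strand): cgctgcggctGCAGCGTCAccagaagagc

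In Psmb5 and Psmb6 the core reads along the gene, and in Psmc6 and Psme4 it reads on the opposite strand. A match is a description of letters and not a site of binding.

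Coordinates were taken from GENCODE M21 on GRCm38, the assembly that mm10 in the labels stands for, where the members named here are protein-coding genes. Psmb10 lies at chr8:105935735-105938444 and Psmb7 at chr2:38588036-38644087, both on the minus strand. Psmb8 (chr17:34197721-34201454, plus strand) and Psmb9 (chr17:34181987-34187764, minus strand) lie near each other in the major histocompatibility complex. Psmb5 lies at chr14:54614119-54618022 on the minus strand, Psmc6 at chr14:45329788-45349705 and Psme4 at chr11:30771726-30880361 on the plus strand. Exons of some members overlap exons of a gene on the other strand, by 212 bases between Psmb9 and Tap1, by 405 between Psmb7 and Nek6, by 498 between Psmb8 and Gm20496, by 215 between Psmc3 and Slc39a13 and by 252 between Psmd1 and Htr2b. The use of strand in counting is not given in the sources used here, so reads of these stretches may belong to either gene. Retained copies (processed pseudogenes) of Psmb5, Psmb6 and Psmb7 are annotated and could share reads with them. Only copies named after their parent gene were looked for, so other members may have copies too.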

How the data were processed

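RNA of sorted mouse HSCs was sequenced from 3 WT and 2 KO libraries. The authors deposited normalized signal per gene, which the values show to be reads scaled by 1 factor per library. STAR, featureCounts, DESeq2 and the build mm10 are named in the submitters' processing notes; annotation and strand are not given in the sources used here. The authors' own comparison, a second deposited table of fold changes with their p-values, was not used. The study's methods state biological replicates for its experiments, but the labels tie no library to an animal, so p-values measure the spread between these libraries.

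Dividing each column by its smallest step gave whole reads for 100% of values (within 0.01 read), totalling 12539599 to 22779536. Molecular identifiers were not used, so intervals cover counting error only. The main test was limma 3.58.1 (R 4.3.3, moderated with a mean trend, no covariate) on log2(signal + 1), with Benjamini-Hochberg adjustment over the 13661 genes that reached 10 in 2 or more libraries. Fold changes on this scale understate those of low genes. Alternatives were edgeR 4.0.16 and DESeq2 1.42.0 on the recovered reads, pseudocounts of 0.1 and 10, no filter, TMM and quantile scaling, array weights, a replicate block, an adjusted p of 0.1, a minimum change of 2-fold, a length and GC trend removed from each library (13515 genes matched to GENCODE M21) and each library left out. Scripts were tested on simulated data. Members and lists were chosen with earlier results of these data known. The rule for named genes took the catalytic subunits, the highest and lowest member of each class of 3 or more, the 5 members with the lowest limma p, those called by DESeq2 (at most 10), the member under the filter, and fixed lists of 8 members and 6 pathway genes. Other genes were named after their values were seen, and the GC classes, correlations and removal of GC alone were added after seeing the data.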

Additional observations from a re-analysis of the deposited data

How the results depend on the processing

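No member passed an adjusted p of 0.05 in limma with another pseudocount, no filter, TMM or quantile scaling, array weights, the replicate block or a trend removed, nor in edgeR. DESeq2 called 8 members, 9 pathway genes and 2285 genes in all. At a limma adjusted p under 0.1 there were 4 members and 1534 genes. Over all genes limma called 1 (Syncrip), edgeR 2, limma with pseudocount 10 2, and limma with no filter, array weights, the length and GC trend removed or GC alone removed 0. Leaving out 1 library gave 0 to 13 members, 0 to 15 pathway genes and 0 to 3024 genes, the highest each without KO 2. It moved the members' median between -0.19 (without KO 2) and 0.14 (without KO 3), and the difference in the share of reads between -0.025 (without WT 2) and 0.047 percentage points (without KO 3). The log2 difference of the Psmb8 to Psmb5 ratio ran from -0.22 (without KO 3) to 0.47 (without KO 2), and that of Psmb9 to Psmb6 from -0.13 to 0.12. The replicate block called 0 members and 6 genes. Numbers 2 and 3 occur in both groups, but deviations of same-numbered libraries correlated at -0.0594 and -0.183, so the numbers were not taken as a pairing. In the block fit Psme2 was at 0.12 and Psmb2 at 0.028, on the other side of 0, and it changed no call of a member or pathway gene.

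After removal of the length and GC trend, the sign reversed for 12 members, Psma2 (0.20), Psma3 (0.42), Psma8 (0.069), Psmb6 (-0.0059), Psmc3 (-0.14), Psmc4 (-0.044), Psmc6 (0.030), Psmd10 (0.034), Psmd3 (-0.018), Psmd6 (0.057), Psmd8 (-0.13) and Psme3 (0.021), and for Tap1 (-0.012) and Adrm1 (-0.066). After removal of GC alone, an alternative chosen after seeing the data, it reversed for 13, Psma2 (0.19), Psma3 (0.42), Psma8 (0.043), Psmb6 (-0.043), Psmb9 (-0.0083), Psmc3 (-0.15), Psmc4 (-0.063), Psmc6 (0.0074), Psmd10 (0.0024), Psmd3 (-0.018), Psmd6 (0.030), Psmd8 (-0.14) and Psme3 (0.019), and for Tap1 (-0.0018) and Adrm1 (-0.076). Quantile scaling put Psmd8 (-0.022) on the other side. Array weights put Psme2 at 0.011. Leaving out 1 library moved the log2 fold change across 0 for Psmb2 (-0.35 to 0.25), Psme2 (-0.20 to 0.16), Psme3 (-0.052 to 0.020), Psmb7 (-0.96 to 0.022) and Irf1 (-0.35 to 0.040). It also did so without KO 3 for Psma5 (0.024), Psmd13 (0.14) and Psmd6 (0.022), without KO 2 for Psmb1 (-0.021), Psmc3ip (-0.14) and Psmg2 (-0.23), without WT 2 for Psmb1 (-0.045), Psmc3ip (-0.013), Psmd8 (-0.031) and Psmg2 (-0.10), and without WT 3 for Psmd13 (0.032). The cause was not tested. The call on Syncrip was lost in 7 of these settings, its log2 fold change staying between -2.55 and -1.44 in them. The lower depth of KO 3 limits the precision of its low members, such as Psma8, and 2 KO libraries limit every test.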
